A study of Mus musculus with 4 samples.

Results

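The genes described here are 10 that encode enzymes and a chaperone of collagen hydroxylation and cross-linking: the lysyl oxidases Lox, Loxl1, Loxl2 and Loxl3, the lysyl hydroxylases Plod1, Plod2 and Plod3, the prolyl 4-hydroxylase alpha subunits P4ha1 and P4ha2, and Serpinh1. They were chosen by symbol, with no measured value in the rule but with earlier results of these data known. All 10 were found among the 18200 genes of the table. Serpinh1 encodes the collagen chaperone HSP47 and is neither an oxidase nor a hydroxylase. RNA from polysomes, the messenger RNA that carries several ribosomes, was sequenced from wild-type mouse cells labelled ADSCs, which the series title places among mesenchymal stem cells. Of the 4 libraries, 2 carry the treatment label scrambled (Sc-1 and Sc-2, together the Sc libraries) and 2 the label IFIT1 knockdown, by sh-Ifit1 per the design text (Kd-1 and Kd-2, the Kd libraries). Sc-1 and Kd-1 belong to batch 1, and Sc-2 and Kd-2 to batch 2. Whether the replicates were separate cultures, and how many shRNA sequences or clones were used, is not stated in the labels, so the p-values speak only of the variation among these libraries, which can be purely technical. Total RNA is not part of the data analysed here, so the amount of a messenger RNA and its loading with ribosomes cannot be told apart. In such bulk samples fewer cells of a type and less RNA per cell cannot be told apart either.

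Collagen chains are modified while they enter the endoplasmic reticulum. Prolyl 4-hydroxylase, built of alpha subunits with the catalytic site and of the shared beta subunit P4hb, makes the hydroxyproline that keeps the triple helix stable at body temperature. Lysyl hydroxylases make hydroxylysine, HSP47 holds the folded triple helix until it leaves the endoplasmic reticulum, and copper-dependent lysyl oxidases outside the cell turn lysine and hydroxylysine into the aldehydes from which cross-links form. The hydroxylases need iron, ascorbate and 2-oxoglutarate. Stromal cells are a main source of fibrillar collagen in tissues.

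Before any result, several features of the libraries bear on what follows. Ifit1, the gene named as the target, was higher in the Kd libraries, at 13.9 and 14.8 FPKM (fragments scaled to gene length and library depth) against 1.93 and 1.91 in the Sc libraries. This runs against the labels, which nothing else here checks, and each direction below compares Kd with Sc libraries as labelled. For many genes, Sc-1 resembled Kd-2, and Sc-2 resembled Kd-1. Of 8750 tested genes, 1292 (14.8%) differed by more than 0.2 (log2) between replicates in both groups and by less than 0.1 in both of these crossed pairs, while 0 did so in the 2 pairs of the same batch (limits chosen after the values were seen). Loxl1 was one of these 1292 genes. For the other genes the replicates were often closer than counting error gives: the median standard error of tested genes was 0.0208, and the median counting error of the same difference was 0.0382. The adjusted p-values of limma given below can therefore be too small. Each fold of a member is also given with a 95% interval for counting error, from whole fragment numbers recovered from the FPKM values. Folds of other genes are given without it. The libraries held 24448952 to 29825482 recovered fragments. Of the mesenchymal markers, all 7 tested of 11 were higher in the Kd libraries, against 27.4% higher among all tested genes. Eng and Mcam reached the mean for testing, at least 1 FPKM, only through the Kd libraries. Without that filter 8 of the 11 were higher and 1 lower, with a median log2 change of 0.41. Among the untested markers, Alcam was at 0.154 and 0.167 FPKM in the Sc libraries and 0.121 and 0.11 in the Kd libraries. Pdgfrb was at 0.768 and 0.883 against 0.909 and 0.791. Nt5e and Pdgfra stayed at or below 0.0347 and 0.121 FPKM. The sum over the 11 mesenchymal markers was 42.6 and 42.0 FPKM in the Sc libraries and 99.0 and 98.1 in the Kd libraries. Thy1 was at 3.71, 3.68, 31.0 and 30.3 in the same order. Of the 10 epithelial and mesothelial markers 5 were tested, and 3 were higher, 1 lower and 1 short of the threshold, with a median log2 change of 1.05. The 3 higher ones, Krt7, Krt8 and Krt18, also reached the mean for testing only through the Kd libraries. Without that filter the median over the 10 was 0.01. The keratins of simple epithelia moved apart: Krt8 was 9.14-fold, Krt18 6.15-fold and Krt7 3.25-fold higher, from means below 1 FPKM, while Krt19 was lower, at 91.4 and 92.2 FPKM against 166 and 161 in the Sc libraries. The sum of the 10 markers, 170 and 165 against 102 and 103 FPKM, is mostly Krt19, and Epcam was at 0.0124 or less. Over 4 matched endothelial markers the sum was 1.69 and 1.63 against 4.70 and 4.47 FPKM, nearly all of it Egfl7, with Pecam1 at 0.00932 or less. The sum for leukocytes (4 matched of 9) ranged from 9.17 to 9.40, with 1 of 2 tested markers higher and 1 lower. The sum for adipocytes (5 matched of 8) ranged from 7.36 to 8.32, but its 3 tested markers all passed: the regulator Pparg was lower (fold 0.317), as was the fatty acid carrier Fabp4 (0.572), and Cebpa was 1.90-fold higher. The part of these marker differences in the results below was not tested.

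**Figure D1:**
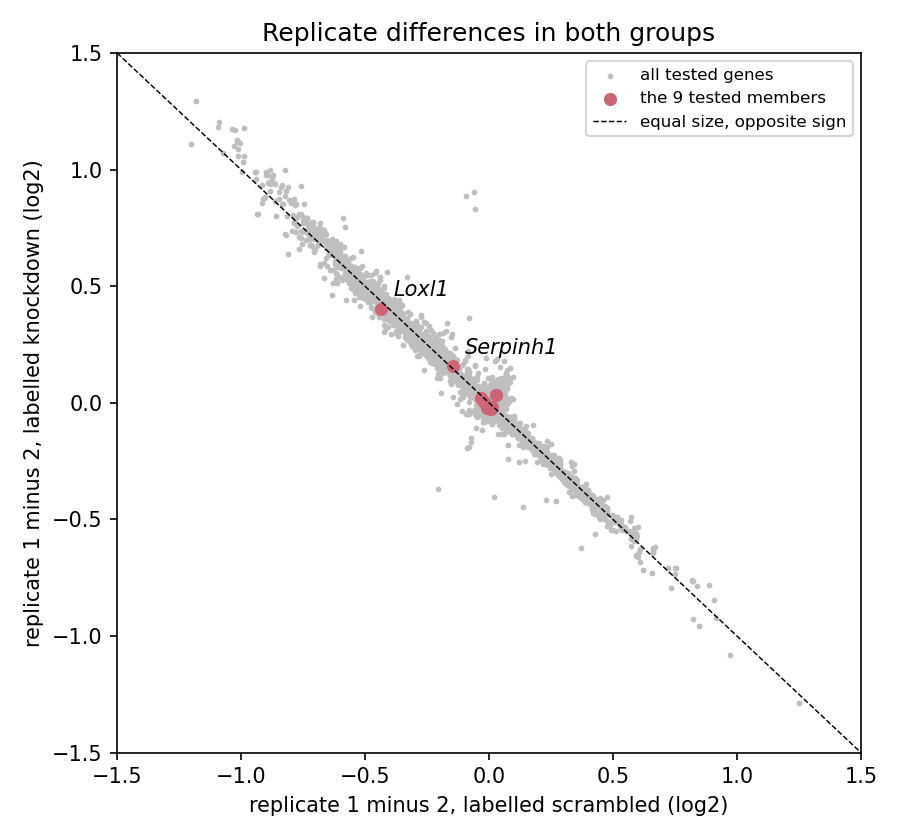
Difference between replicates 1 and 2 on log2(FPKM + 1), in the Sc libraries (x axis) and the Kd libraries (y axis), for all 8750 tested genes (grey, 6 of them beyond the axes) and the 9 tested members (red). Most points far from the centre lie near the dashed line of equal size and opposite sign, Loxl1 and, nearer to the centre, Serpinh1 among them.

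The collagen-modifying genes did not move together. The lysyl hydroxylases Plod1 and Plod3 were more than 2-fold higher in the Kd libraries, Loxl3 and Serpinh1 rose less, Lox and Loxl2 fell, and the prolyl 4-hydroxylase alpha subunits stayed within about 10% of their level in the Sc libraries. Plod2, with a mean below 1 FPKM, was not tested, which left 9 of 10 members. Of the 9, 5 were higher, 3 were lower and 1, Loxl1, did not pass (limma on log2(FPKM + 1), adjusted p over all tested genes under 0.05). Of all tested genes 68.7% passed, 27.4% higher and 41.2% lower, so a share of 8 in 9 is to be read against a background in which most genes passed. The median log2 change was 0.06 over the 9 members and -0.02 over all tested genes. After median-centring 5 members were higher and 2 lower with a median of 0.23. Over all 8750 tested genes this setting gave 2833 higher and 3040 lower with a median of 0.15. The counts of members were the same, with a median of 0.31, once the trend of change with transcript length was taken out. Of all 8693 genes with a transcript length 2753 were then higher and 3179 lower. With batch as a block 3 members were higher and 2 lower: Plod1, Plod3, Loxl3, Lox and Loxl2 passed, and P4ha1, P4ha2 and Serpinh1 did not. The counts were also 3 higher without the library labelled Sc-1, Kd-1 or Kd-2.

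**Figure D2:**
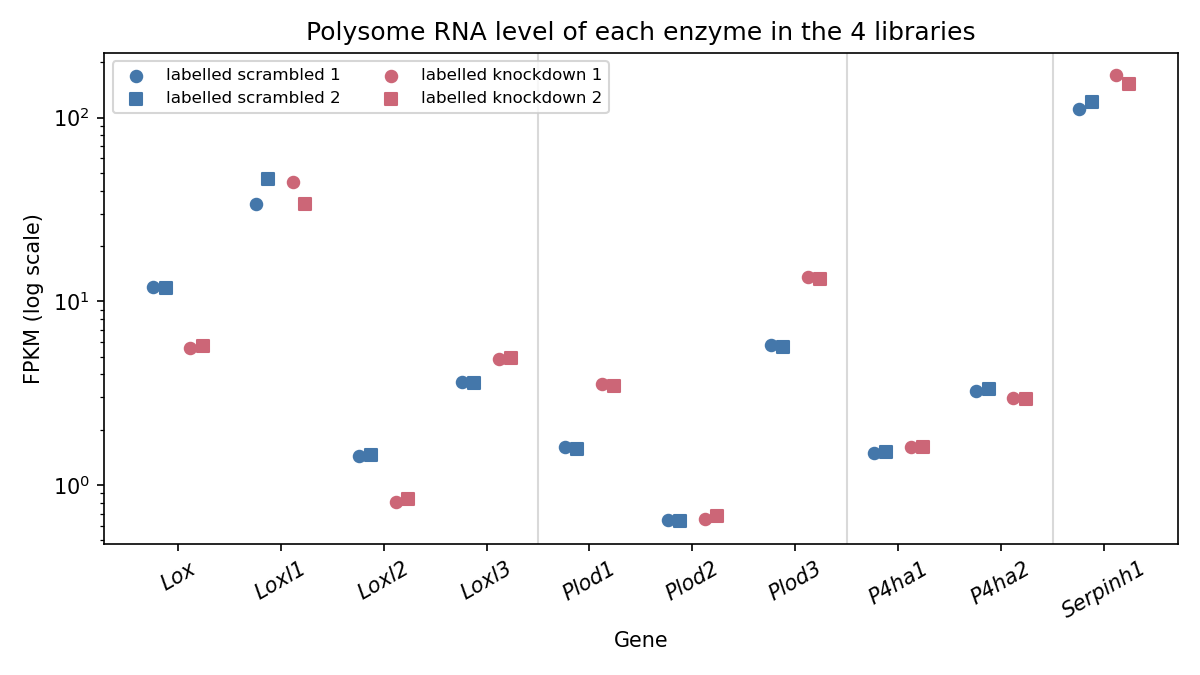
FPKM (log axis) of the 10 genes in each of the 4 libraries, circles for replicate 1 and squares for replicate 2. The groups overlap for Loxl1 only. The gaps are narrow for Plod2, P4ha1 and P4ha2 and wide for Lox, Plod1 and Plod3.

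**Figure D3:**
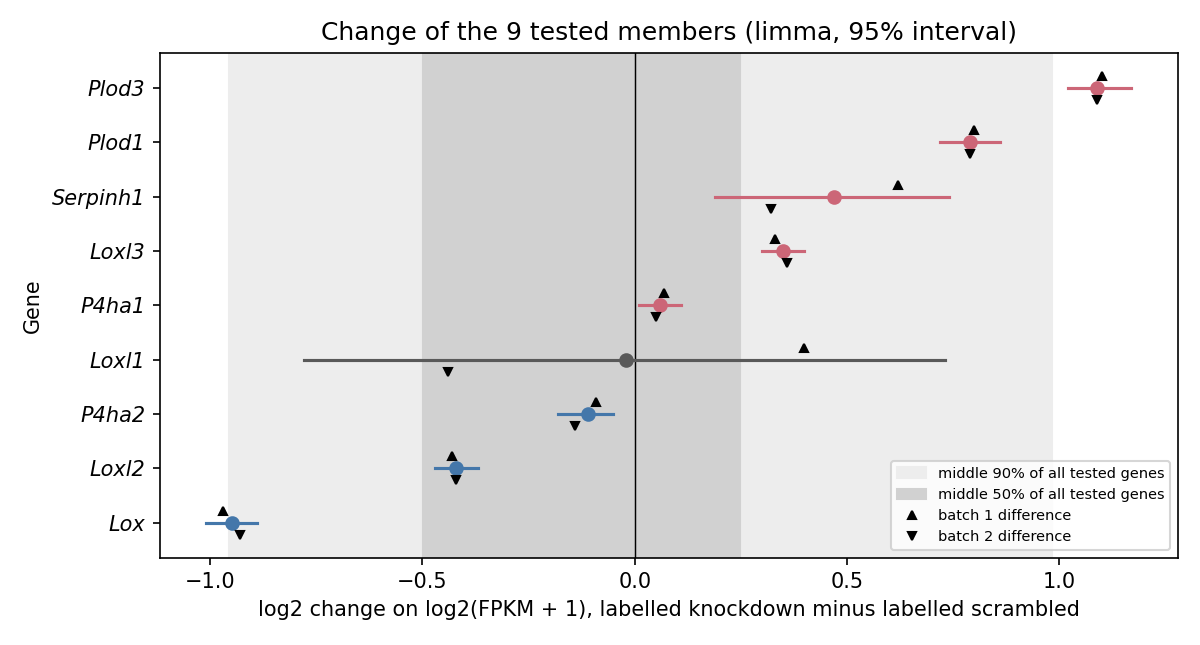
Log2 change of the 9 tested members with its 95% interval from limma, red for higher, blue for lower and grey for not past the threshold, with the differences within batch 1 and batch 2 as triangles. The dark and light bands hold the middle 50% (-0.50 to 0.25) and 90% (-0.96 to 0.98) of all tested genes. Only Plod3 lies beyond the light band, and Loxl1 has batch differences of opposite sign.

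Plod3 (Entrez 26433) and Plod1 (Entrez 18822) had the largest increases of the 10 genes. Both hydroxylate lysine in collagen, and the Plod3 protein also carries the activity that adds glucose to galactosylated hydroxylysine. Plod3 was at 5.78 and 5.64 FPKM in the Sc libraries and at 13.5 and 13.2 in the Kd libraries. The means were 5.71 ± 0.0985 and 13.3 ± 0.232 FPKM (SD, n = 2 each), a 2.33-fold difference (counting interval 2.19 to 2.49), from 610 and 723 fragments against 1745 and 1562. Both libraries of one group were far from both of the other, and the log2 change of 1.09 (SE 0.023, limma adjusted p = 1.6e-04) was larger in size than that of 93.9% of all tested genes. Plod1 was at 1.62 and 1.57 FPKM against 3.55 and 3.45, a 2.19-fold difference (counting interval 1.84 to 2.62). It rests on fewer fragments, 85 and 100 against 228 and 203, with 0.79 as its log2 change (limma SE 0.022 and adjusted p = 1.7e-04). The groups were again well apart, and the differences within batches were 0.80 and 0.79 for Plod1 and 1.10 and 1.09 for Plod3.

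Plod2 (Entrez 26432), whose product hydroxylates the lysines of collagen telopeptides, was the lowest of the 10 genes in both groups. Its FPKM was 0.648 and 0.634 in the Sc libraries and 0.655 and 0.682 in the Kd libraries, from 197, 234, 244 and 233 fragments. The groups did not overlap, but the gap between 0.648 and 0.655 is far inside counting error (fold 1.04, counting interval 0.914 to 1.19). Without the filter on low values its log2 change was 0.02 (interval -0.02 to 0.07, limma adjusted p = 0.37). Summed over the 3 lysyl hydroxylases, which FPKM allows because it is per length, the level was 8.05 and 7.85 FPKM in the Sc libraries and 17.7 and 17.3 in the Kd libraries. Plod3 made up 71.8% and 71.9% of that sum in the former and 76.2% and 76.1% in the latter. The share of Plod1 was near 20% in every library (19.9% to 20.2%), and that of Plod2 went from 8.05% and 8.07% to 3.70% and 3.94%.

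The promoters of Plod3 and Plod1, the members that rose most, are shown next to that of P4ha2, a gene of the same pathway that moved little, because prolyl and lysyl hydroxylase genes are known targets of hypoxia-inducible factor. Each run is 300 bases, 250 before and 50 after the start site, 5′ to 3′ in the direction of the gene, from RefSeq on GRCm38.p6, where 5 of the 10 members had an entry (Plod1, Plod3, P4ha1, P4ha2 and Serpinh1). Capitals mark the core of the hypoxia-response element, ACGTG or GCGTG, on either strand. ACGTG also lies inside the E-box CACGTG.
Plod3 (chr5:136986769-136987068, plus strand): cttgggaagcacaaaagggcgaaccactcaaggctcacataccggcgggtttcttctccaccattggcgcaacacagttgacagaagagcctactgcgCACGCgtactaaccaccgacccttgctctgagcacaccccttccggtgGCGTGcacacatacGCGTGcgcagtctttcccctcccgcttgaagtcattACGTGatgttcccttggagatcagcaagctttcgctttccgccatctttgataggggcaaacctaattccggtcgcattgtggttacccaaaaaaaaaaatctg
Plod1 (chr4:147936727-147937026, minus strand): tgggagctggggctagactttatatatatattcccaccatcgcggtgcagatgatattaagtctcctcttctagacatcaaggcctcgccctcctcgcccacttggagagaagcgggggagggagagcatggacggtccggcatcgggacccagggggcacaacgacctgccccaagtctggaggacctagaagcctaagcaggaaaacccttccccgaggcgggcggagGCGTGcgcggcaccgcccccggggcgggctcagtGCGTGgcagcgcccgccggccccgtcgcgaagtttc
P4ha2 (chr11:54100674-54100973, plus strand): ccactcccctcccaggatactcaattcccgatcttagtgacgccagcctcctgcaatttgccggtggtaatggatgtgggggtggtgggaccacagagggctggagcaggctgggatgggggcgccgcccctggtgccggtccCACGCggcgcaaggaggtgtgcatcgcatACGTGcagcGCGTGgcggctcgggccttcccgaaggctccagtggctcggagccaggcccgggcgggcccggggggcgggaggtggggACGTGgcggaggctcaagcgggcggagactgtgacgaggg
Plod3 and P4ha2 held 4 matches each, P4ha1 held 3, Plod1 2 and Serpinh1 1. Of 32851 promoters of the same length, 43.8% held at least 1 match, 20.6% at least 2 and 3.86% at least 4. In the same order the log2 changes of these 5 genes were 1.09, -0.11, 0.06, 0.79 and 0.47. Whether the matches have a part in these changes was not tested. A match is a description of the letters and not a measured site.

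Among the hypoxia-induced genes listed alongside, 6 of 17 tested were higher and 8 lower, and 3 missed the threshold (5 higher and 7 lower with batch as a block), with a median log2 change of -0.15, where 27.4% of all tested genes were higher and 41.2% lower. The counts moved with the scaling, as did those of all tested genes. After median-centring 6 were higher and 5 lower (median 0.02), against 2833 and 3040 of all 8750 tested genes (median 0.15, and -0.02 before). Once the length trend was taken out, 7 of the 15 with a transcript length were higher and 5 lower (median 0.11). Of all 8693 such genes 2753 were then higher and 3179 lower. Slc2a1, the glucose transporter GLUT1, rose 2.83-fold (5.96 and 5.83 against 16.9 and 16.4 FPKM), and Bnip3, a mitophagy receptor, rose 1.93-fold. Ndrg1 was lower, at 29.4 and 29.9 FPKM against 53.2 and 52.7 in the Sc libraries, as was the glycolytic regulator Pfkfb3, at 1.02 and 1.04 against 1.93 and 1.91. The log2 change of Pfkfb3 was -0.53, and -0.35 after median-centring and -0.18 with the length trend taken out. This list, like the members, held genes of either direction.

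Lox (Entrez 16948), the founding lysyl oxidase, had the largest decrease. It was at 11.9 and 11.8 FPKM in the Sc libraries and at 5.59 and 5.72 in the Kd libraries. The means were 11.9 ± 0.0538 and 5.65 ± 0.0907 FPKM (SD, n = 2 each), a fold of 0.476 (counting interval 0.451 to 0.502), from 1838 and 2218 fragments against 1057 and 992. The groups were clearly apart, and the log2 change of -0.95 (SE 0.019, limma adjusted p = 1.6e-04) exceeded in size that of 89.5% of tested genes. Batch 1 gave -0.97 and batch 2 gave -0.93. Loxl2 (Entrez 94352), an oxidase with scavenger receptor domains that also acts on type IV collagen of basement membranes, fell as well. Its FPKM was 1.44 and 1.45 against 0.813 and 0.839 (fold 0.572, counting interval 0.500 to 0.651), from 271, 333, 188 and 178 fragments. At this low level the size of its log2 change depended on the scale: it was -0.42 (limma adjusted p = 2.3e-04) with a pseudocount of 1, -0.74 with 0.1, -0.25 after median-centring and -0.09 once the trend with transcript length was taken out (adjusted p from 2.5e-04 to 0.015 over the alternatives).

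Loxl3 (Entrez 16950), the closest relative of Loxl2 in the list, went the other way. It was at 3.65 and 3.61 FPKM in the Sc libraries and at 4.86 and 4.93 in the Kd libraries, a 1.35-fold difference (counting interval 1.21 to 1.51). The groups did not overlap, and limma gave a log2 change of 0.35 (SE 0.016 and adjusted p = 4.0e-04), 0.33 and 0.36 within the batches.

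Loxl1 (Entrez 16949), which is needed for elastic fibre upkeep, was the most abundant lysyl oxidase and the one gene of the 9 that did not pass. Its FPKM was 33.8 in Sc-1, 46.1 in Sc-2, 44.8 in Kd-1 and 33.7 in Kd-2. The groups overlapped fully, each with a high and a low library. The replicates differed by 14.8 counting SDs in the Sc libraries (3633 and 6016 fragments) and by 14.0 in the Kd libraries (5901 and 4066 fragments). By contrast, Kd-2 differed from Sc-1 by -0.436% and Kd-1 from Sc-2 by -2.77%. The log2 difference was 0.40 within batch 1 and -0.44 within batch 2. The mean log2 change was -0.02 with an interval of -0.78 to 0.73 (limma adjusted p = 0.99).

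Because Loxl1 outweighs the other lysyl oxidases, the summed FPKM of all 4 followed it. The sum was 50.8 and 63.0 in the Sc libraries and 56.1 and 45.1 in the Kd libraries, and the groups overlapped. The composition of that sum did differ: Lox made up 23.4% and 18.8% in the Sc libraries and 9.97% and 12.7% in the Kd libraries. The share of Loxl3 was 7.18% and 5.73% against 8.66% and 10.9%, and that of Loxl2 was 2.83% and 2.31% against 1.45% and 1.86%. Loxl1 accounted for 66.5% and 73.2% against 79.9% and 74.6%.

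**Figure D4:**
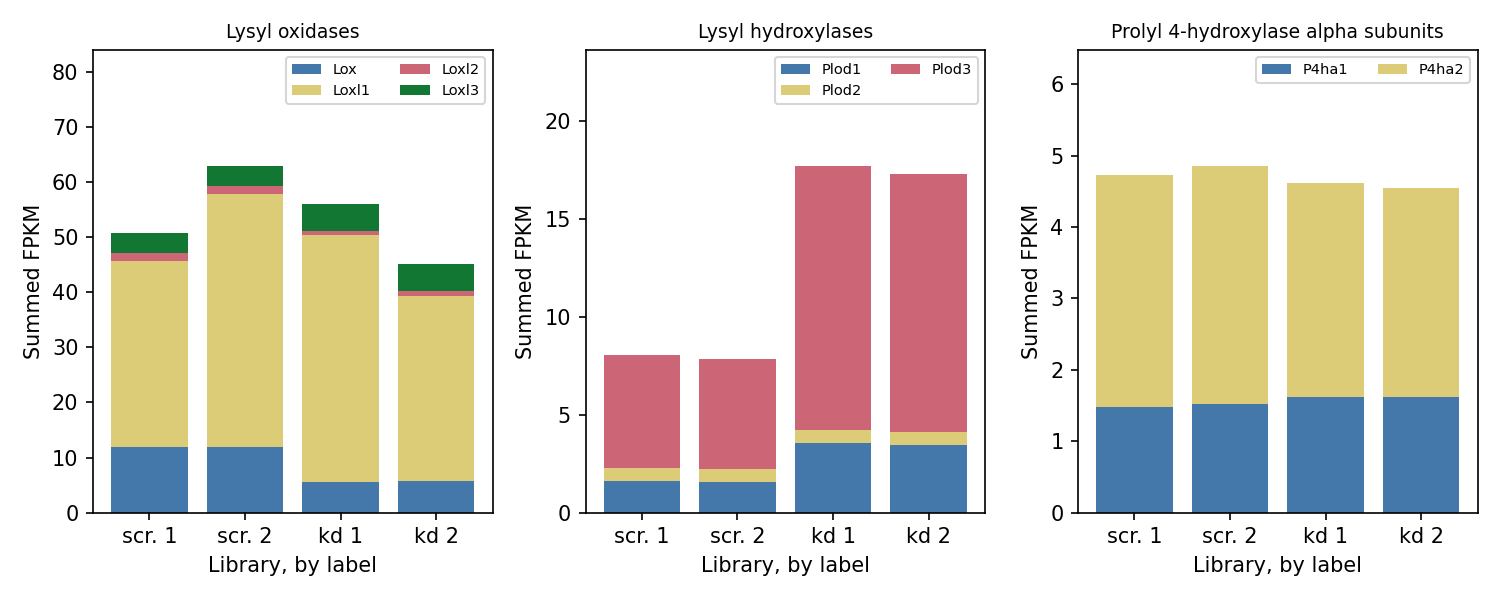
Summed FPKM of each enzyme family in the 4 libraries (scr., labelled scrambled; kd, labelled knockdown), stacked by gene, each panel with its own axis from 0. The lysyl hydroxylase sum is near 8 in both Sc libraries and above 17 in both Kd libraries, the lysyl oxidase sum follows Loxl1, and the prolyl 4-hydroxylase alpha sum lies between 4.55 and 4.86.

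P4ha1 (Entrez 18451) and P4ha2 (Entrez 18452), the catalytic subunits of prolyl 4-hydroxylase, differed little between the groups. P4ha1 was at 1.49 and 1.52 FPKM against 1.61 in both Kd libraries, a 1.07-fold difference whose counting interval of 0.940 to 1.22 includes 1. It passed with a log2 change of 0.06 (limma adjusted p = 0.038), which was 0.23 after median-centring and 0.31 with the length trend taken out, but the block for batch gave adjusted p = 0.17, and it did not pass with standard errors held at or above counting error (adjusted p = 0.48, range over alternatives 5.5e-04 to 0.48). P4ha2 was at 3.24 and 3.34 FPKM against 2.99 and 2.93, a fold of 0.901 with a counting interval of 0.797 to 1.02. Its log2 change was -0.11 (limma adjusted p = 0.016), 0.06 after median-centring, and its adjusted p was 0.092 with batch as a block and 0.25 with counting error as the smallest standard error (range over alternatives 0.016 to 0.97). Neither gene passed when any 1 of the 4 libraries was left out. The groups did not overlap for either gene, but at 197 to 306 fragments a library these gaps are within counting error. The sum of both was 4.73 and 4.86 FPKM in the Sc libraries and 4.61 and 4.55 in the Kd libraries, and the share of P4ha1 in it was 31.4% and 31.3% against 35.0% and 35.5%.

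P4hb, the beta subunit, also known as protein disulfide isomerase, had the crossed pattern of Loxl1. Its FPKM was 17.2, 23.3, 22.9 and 17.0 in Sc-1, Sc-2, Kd-1 and Kd-2, and it did not pass (log2 -0.02). The ratio of P4ha1 to P4hb was 0.0863 and 0.0653 in the Sc libraries and 0.0706 and 0.0946 in the Kd libraries, so the groups overlapped. P4ha3, another alpha subunit, was at 1.01, 1.26, 1.23 and 1.01 FPKM in the same order and did not pass either.

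Serpinh1 (Entrez 12406) was the most abundant of the 10 genes, above 92.1% of all tested genes in mean FPKM. It was at 111 and 122 FPKM in the Sc libraries and at 170 and 153 in the Kd libraries. The means were 117 ± 8.38 and 162 ± 12.5 FPKM (SD, n = 2 each), a 1.39-fold difference (fold from fragments 1.38, counting interval 1.36 to 1.41). Both Kd libraries were above both labelled scrambled, but the replicates differed by 7.01 and 9.19 counting SDs, with replicate 2 higher in one group and lower in the other. By limma its log2 change was 0.47 (SE 0.088 and adjusted p = 0.019). Within batch 1 it was 0.62, and within batch 2 it was 0.32. In the crossed pairs it was 0.462 (Kd-2 minus Sc-1) and 0.473 (Kd-1 minus Sc-2). It did not pass with batch as a block (adjusted p = 0.068), nor without the library labelled Sc-1 (0.067), Kd-1 (0.090) or Kd-2 (0.051), where the adjusted p ranged from 0.0024 to 0.090 over the 11 alternatives listed in the processing summary.

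By level, the order in the Sc libraries was Serpinh1, Loxl1, Lox, Plod3, Loxl3, P4ha2, Plod1, P4ha1, Loxl2 and Plod2. In those labelled knockdown Plod3 stood above Lox and Plod1 above P4ha2, and the rest kept their places. No 2 neighbours in either order overlapped between their libraries. The gaps between Plod1, P4ha1 and Loxl2 (means of 1.60, 1.51 and 1.44 FPKM) in the Sc libraries were small beside counting error at these fragment numbers.

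The 3 genes whose centred log2(FPKM + 1) over the 4 libraries lay closest to Plod3, the member with the largest change, were Cenpb (Euclidean distance 0.007), Tecr (0.010) and Tmem120a (0.010). Cenpb was at 85.6, 83.2, 184 and 179 FPKM in Sc-1, Sc-2, Kd-1 and Kd-2. The measure rests on 4 libraries in 2 groups.

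The other genes of collagen modification in the endoplasmic reticulum mostly did not pass. Of the 18 listed, 13 were tested: 2 were higher, 0 lower and 11 short of the threshold, with a median log2 change of 0.03, against 68.7% of all tested genes past the threshold. Ppib, the cyclophilin of the prolyl 3-hydroxylase complex, rose from 70.1 and 68.6 FPKM to 105 in both libraries (1.52-fold, log2 0.60, limma adjusted p = 2.1e-04, log2 0.36 with the length trend taken out). P3h3, a member of the prolyl 3-hydroxylase family, rose from 1.40 and 1.38 to 2.10 and 2.12 FPKM. Colgalt1, which adds galactose to hydroxylysine, was at 2.71 and 2.93 against 3.33 and 3.11 FPKM (log2 0.14, limma adjusted p = 0.079). P3h4, a partner of lysyl hydroxylase 1 in the endoplasmic reticulum, was at 9.33 and 11.2 against 13.0 and 10.9 FPKM (log2 0.20, limma adjusted p = 0.33). Of the 13, 5 had the crossed pattern as defined above, among them P4hb, the collagen chaperone Fkbp10 (12.4, 16.2, 15.9 and 12.2 FPKM in Sc-1, Sc-2, Kd-1 and Kd-2) and Hspa5, the main Hsp70 of the endoplasmic reticulum (24.6, 30.6, 31.2 and 25.2 FPKM). After median-centring 4 of the 13 were higher and 0 lower, against 2833 and 3040 of all 8750 tested genes. Large replicate differences widen the standard error, so genes short of the threshold here are not shown to be unchanged. In the crossed pairs (Kd-2 minus Sc-1, Kd-1 minus Sc-2) P3h4 differed by 0.198 and 0.199 and P4hb by -0.015 and -0.029. Colgalt1 differed by 0.149 and 0.141. With a block that pairs the libraries crosswise, chosen after the data were seen, 6 of the 13 were higher and 0 lower. More of all 8750 tested genes passed with it too, 2962 higher and 4282 lower.

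Of 12 tested genes of procollagen export and propeptide cleavage, 1 was higher and 5 lower, and 6 missed the threshold (1 higher and 4 lower with batch as a block). The lower share is close to the 41.2% of all tested genes. The median log2 change of -0.17 became 0.01 after median-centring, while that of all tested genes went from -0.02 to 0.15. Sec24d and Sec31a, coat proteins of the COPII vesicles that carry procollagen, fell from 25.3 and 25.0 to 11.9 and 12.1 FPKM and from 35.1 and 34.2 to 18.5 and 18.7. The log2 change of Sec24d was -1.01, and -0.65 with the length trend taken out. Klhl12, the adaptor of a ubiquitin ligase that enlarges these vesicles, was at 7.15 and 6.96 against 3.62 and 3.66 FPKM (fold 0.516). Creb3l1, a membrane-bound transcription factor of the secretory pathway, fell to 14.0 and 14.5 FPKM from 28.6 and 29.3. The 1 that rose was Pcolce, an enhancer of procollagen C-proteinase, from 77.4 in both libraries to 102 and 105 FPKM (named after its values were seen). Bmp1, the C-proteinase itself and an activator of Lox, had the crossed pattern at 4.27, 5.32, 5.22 and 4.22 FPKM.

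The type I collagen chains, the main substrates of these enzymes, fell further than any of the 10 genes. Col1a1 was at 20.0 and 20.8 FPKM in the Sc libraries and at 6.28 and 6.45 in the Kd libraries (log2 -1.54, SE 0.028, limma adjusted p = 1.6e-04). Col1a2 was at 100 and 101 against 33.8 and 34.7 FPKM (log2 -1.53). Of 10 tested fibrillar collagen and elastic fibre genes, 2 were higher and 4 lower, and 4 missed the threshold, with a median of -0.02, against 27.4% higher and 41.2% lower among all tested genes. These counts also moved with the scaling, as did those of all tested genes. After median-centring 4 were higher and 3 lower (median 0.15), against 2833 and 3040 of all 8750 tested genes (median also 0.15). With the length trend taken out, 5 were higher and 2 lower (median 0.17), against 2753 and 3179 of all 8693 genes with a transcript length. Bgn, the proteoglycan biglycan, rose 1.84-fold and Col3a1 rose from 2.65 and 2.62 to 3.39 and 3.42 FPKM. Because Col1a1 fell to a fold of 0.312, a ratio to it rises for any gene that fell less. The ratios below therefore hold this fall as well as the change of the member. The ratio of Plod3 to Col1a1 FPKM was 0.288 and 0.271 in the Sc libraries and 2.15 and 2.04 in the Kd libraries. That of Plod1 to Col1a1 was 0.081 and 0.0757 against 0.566 and 0.535. The ratio of Serpinh1 to Col1a1 was 5.52 and 5.89 against 27.1 and 23.7. Lox, which fell, still fell less than Col1a1, and their ratio was 0.594 and 0.569 against 0.889 and 0.886. The groups did not overlap for any of these ratios. Of the basement membrane list both tested chains rose, Col4a2 from 1.46 and 1.45 to 1.96 and 1.99 FPKM and Col4a1 from 1.33 and 1.37 to 1.45 and 1.44, the latter not with batch as a block (limma adjusted p = 0.046 without and 0.19 with it, range over alternatives 3.3e-04 to 0.39). The log2 changes of Col4a2 and Col4a1, 0.28 and 0.06, were 0.63 and 0.42 with the length trend taken out.

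Of the genes that supply copper, ascorbate and iron to these enzymes, 2 of 6 tested were higher, 0 lower and 4 short of the threshold, with a median of 0.09, where 68.7% of all tested genes passed. Ftl1, the ferritin light chain, rose 1.86-fold, from 2603 and 2543 to 4806 and 4757 FPKM, and its pseudogenes can share its reads. Its log2 change was 0.89, and 0.58 after quantile normalization. The transferrin receptor Tfrc was at 0.941 and 0.934 against 1.18 and 1.20 FPKM, and had adjusted p = 0.26 with counting error as the smallest standard error in limma. Its log2 change of 0.18 was 0.35 after median-centring and 0.02 with the length trend taken out (limma adjusted p = 0.31). Under that last setting 0 of the 5 genes with a transcript length, which leave out Ftl1, were higher, against 2753 of all 8693 such genes. The copper importer Slc31a1 (3.10 and 3.35 against 3.02 and 2.83 FPKM) and the iron transporter Slc11a2 (1.35 and 1.77 against 2.22 and 1.66 FPKM) did not pass. Of the 6 tested, 2 had the crossed pattern, and genes short of the threshold are again not shown to be unchanged.

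**Figure D5:**
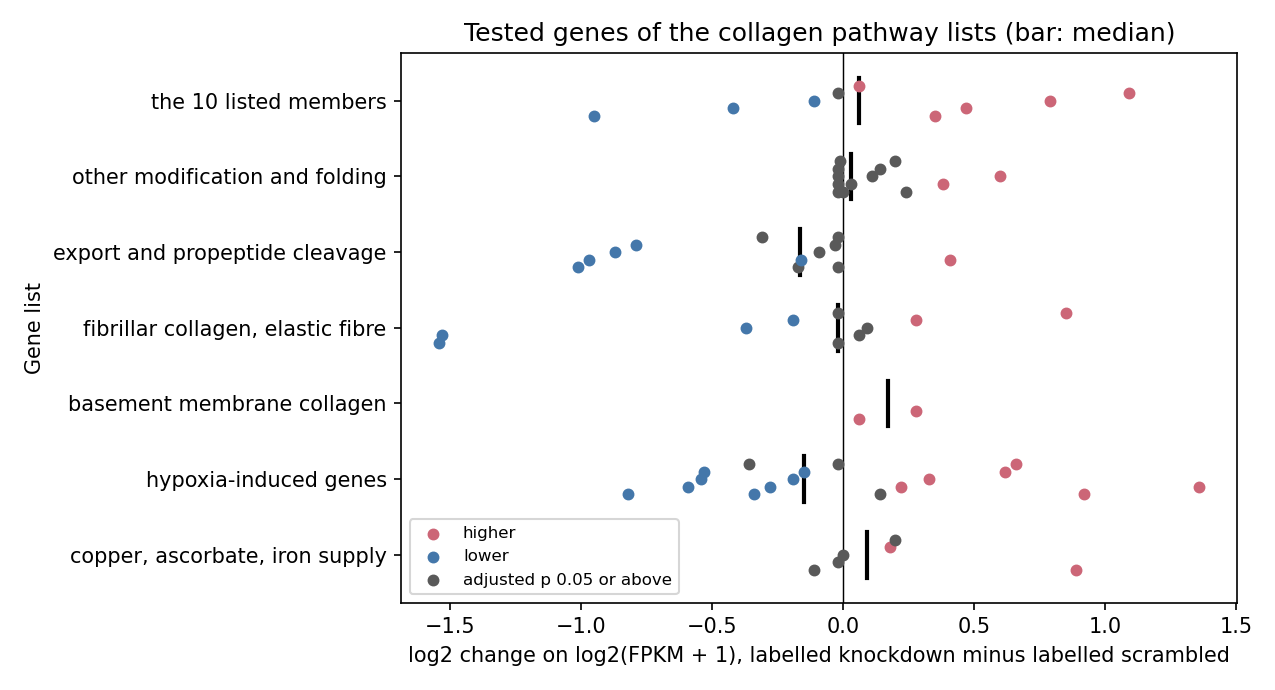
Log2 change of each tested gene of the 10 listed members and of 6 related lists (points, red for higher, blue for lower, grey for not past the threshold), with the median of each list as a bar. The points of the members spread from -0.95 (Lox) to 1.09 (Plod3), and the 2 leftmost points of all are Col1a1 and Col1a2.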

How the data were processed

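Polysome RNA of 4 libraries was measured as FPKM, computed by the authors and named so in the sample labels. Per the submitters' processing notes the genome builds GRCm38, mm10 and GRCm39 are named, with no role given. Aligner, counter and annotation: not given in the sources used here. All 4 value columns were used. The members and gene lists were chosen with earlier results of these data known.

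Genes with a mean of at least 1 FPKM were tested (8750 of 18200) on log2(FPKM + 1) by limma's moderated linear model (version 3.58.1, R 4.3.3; trended prior, no batch term, two-sided, Benjamini-Hochberg adjustment, threshold 0.05). Total degrees of freedom were 3.06 per gene. Changes on this scale understate those of genes with low values. Replicate number and batch coincide in the labels and so pair the libraries, but replicate differences in the 2 groups correlated across genes at r = -0.83. Batch as a block was an alternative. The others were a pseudocount of 0.1, no filter, median-centring, quantile normalization, each library left out, a counting-error floor and removal of the trend with transcript length (Spearman rho -0.38 across 8693 genes). Ranges of adjusted p over alternatives cover these 11 and not the crossed block added after the data were seen.

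Within a library FPKM are whole fragments times a constant, so whole fragment numbers were solved for, up to 60000, and found for 15872 genes and 99.3% of tested genes. A true number can be a multiple of it. Fold intervals (95%) are exact binomial on fragments, cover counting error only, and treat PCR copies as independent. The solving of fragments and the limma fit were both run on simulated data with independent replicates and no crossed pattern. Those runs do not show how far the adjusted p-values hold here. Genes were named by a rule: all members, the 4 tested genes of smallest p in each list, Ifit1, and the 3 closest to the most changed member. Genes named outside it show the crossed pattern, a part of the enzyme complex, a marker near 0 or, for Pcolce, the only rise in its list. They were chosen after their values were seen. Python 3.11.15, numpy 2.4.6, pandas 2.3.3, scipy and matplotlib 3.10.9 made the other tables and figures.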

Additional observations from a re-analysis of the deposited data

How the results depend on the processing

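Plod1, Plod3, Lox, Loxl2 and Loxl3 kept their direction and passed under all 11 alternatives named in the processing summary, with the largest adjusted p at 0.021 (Loxl3, counting-error floor). Without the filter 3819 genes were higher. With batch as a replicate block 3 members were higher and 2 lower, and no call of Plod1, Plod3, Lox, Loxl2 or Loxl3 changed. The fit without any alternative setting gave 5 and 3. Median-centring, quantile normalization and removal of the length trend each gave 5 and 2. With 1 library left out, 3 to 4 members were higher and 2 lower. A block that pairs the libraries crosswise, chosen after the data were seen, gave 2962 higher and 4282 lower genes. P4ha2 was 0.06 after median-centring and 0.00 after quantile normalization. Loxl1, which passed nowhere, was 0.15 after median-centring, 0.03 after quantile normalization, 0.14 with the length trend taken out, and from -0.24 to 0.20 with 1 library left out. Slc31a1 was 0.07, 0.00 and 0.11 under the same 3 settings. The median change over all 8750 genes was -0.02, and 0.15 once libraries were median-centred. The causes were not tested. Plod2, P4ha1 and P4ha2, at 197 to 306 fragments a library, are limited by counting depth.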
